A study of Mus musculus with 2 samples.

Results

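The cells described here were Pax2 GABAergic neurons, named in the series' terms as dI4 or dILA-like, found in mouse embryonic stem cell cultures that had been differentiated for 9 days. A cell was a member when its barcode held 1000 genes or more, with mitochondrial UMIs of no more than 10%, and had at least 1 UMI of Pax2, at least 2 UMIs of Gad1, Gad2 and Slc32a1 together, no UMI of Dmrt3 and fewer than 10 UMIs of Sst. A UMI is a molecular barcode that counts 1 captured transcript. Members were thus chosen by measured UMIs of these 6 genes, whose values are no finding. The rule found 565 members among 14688 cells that passed the quality limits. All cells came from the MM13 line of mouse embryonic stem cells, and the cultures received either retinoic acid (RA) or retinoic acid with bone morphogenetic protein 4 (RA+BMP4). Each condition was 1 droplet-based library, dissociated with cold trypsin after dead cells had been removed. The labels name 1 line and do not say how many cultures were pooled or at which dose and time the factors were given. There was therefore no replicate error, no p-value was computed, and every interval below is a 95% interval for counting error only. Condition and library cannot be told apart in this design.

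The dorsal spinal cord makes its inhibitory interneurons from progenitors that use Ptf1a, and the neurons that leave this domain switch on Lbx1, Pax2, Lhx1 and Lhx5. The early-born class is called dI4 and the late-born class dILA, and both go on to make GABA, glycine or both. Their excitatory counterparts, dI5 and dILB, share Lbx1 but use Tlx3 and Lmx1b in place of Pax2. Pax2-positive inhibitory neurons of the adult dorsal horn carry peptides such as neuropeptide Y, and they gate touch, itch and pain signals.

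The RA library held 9704 barcodes with 122110565 UMIs, and the RA+BMP4 library held 13121 barcodes with 115268932 UMIs. The quality limits kept 6038 and 8650 cells. Members had a median of 10950 UMIs in RA and 8163.5 in RA+BMP4, and a median of 6.36% and 4.20% mitochondrial UMIs, and the part of these gaps in the results below was not tested. A doublet caller marked 19 of 377 RA members and 14 of 188 RA+BMP4 members, and the sets were described with and without them. The libraries shared 43 barcodes, of which 22 passed the quality limits and 0 were members.

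Members made up 377 of 6038 RA cells, or 6.24% with an exact (Clopper-Pearson) interval of 5.65% to 6.88%. They made up 188 of 8650 RA+BMP4 cells, or 2.17% with an interval of 1.88% to 2.50%. The RA+BMP4 share was 0.348 times the RA share, with an interval of 0.291 to 0.416. This ratio describes the cells that the rule selected. Pax2 was detected in 1068 RA cells and 413 RA+BMP4 cells, and 634 and 244 of those also met the GABA limit, 59.4% and 59.1% of the Pax2 cells. Dmrt3 removed 21 and 1 of them, and Sst removed 236 and 55.

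The genes of the rule were at similar levels in the 2 libraries' members, given as CPM, the UMIs of a gene scaled to a fixed total of summed UMIs. Pax2, the paired-box factor that specifies inhibitory fate here, was at 404 CPM in RA members and 388 CPM in RA+BMP4 members. Gad2, which makes GABA, was at 274 and 238 CPM, and Gad1, the other GABA-making enzyme, at 85.0 and 99.4 CPM. Slc32a1, the vesicular transporter that loads GABA and glycine, was at 165 and 220 CPM. Members had a median of 4 Pax2 UMIs in RA and 3 in RA+BMP4. These values follow from the choice of cells and support nothing by themselves.

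Members just inside the GABA limit, with 2 UMIs of the 3 genes, carried Pax8 at 83.3 CPM in RA members and 122 CPM in RA+BMP4 members. Pax2 cells just outside it, with 1 UMI, carried Pax8 at 39.96 and 71.2 CPM, and those with none at 2.12 and 5.58 CPM. Members just inside the Pax2 limit, with 1 UMI, had Lhx1 at 652 and 616 CPM. Cells just outside, with the GABA genes but no Pax2 UMI, had Lhx1 at 235 and 432 CPM. Members with 5 to 9 Sst UMIs and cells left out with 10 to 14 had Lhx1 at 650 and 653 CPM in RA and at 666 and 598 CPM in RA+BMP4. Pax8 at this edge was at 88.1 and 50.8 CPM in RA and at 112 and 108 CPM in RA+BMP4. Cartpt was at 850 and 889 CPM in RA and at 669 and 1381 CPM in RA+BMP4, where the sets held 25 and 16 cells. These are descriptions of the edges of the rule.

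The label was checked on identity genes that the rule did not use. Pax8, a paired-box factor that accompanies Pax2 in inhibitory neurons, was at 127 CPM in RA (interval 117 to 137) and 147 CPM in RA+BMP4 (130 to 166). Lbx1, the homeobox gene of the dI4 to dI6 and dIL classes, was at 107 CPM (98.1 to 117) and 101 CPM (86.5 to 116). Lhx1, a LIM homeobox gene of inhibitory interneurons, was at 677 CPM (654 to 701) and 710 CPM (672 to 750). The levels of all 3 lay close together in the libraries, as the plot of identity genes shows. After every cell was thinned to 5000 UMIs, which left out 1 RA and 11 RA+BMP4 members, Pax8 was detected in 43.1% and 45.2% of members. Before thinning the Pax8 shares were 58.1% and 59.6%. Lbx1 was detected in 39.4% and 42.9% of thinned members, and in 62.6% and 52.7% before thinning. The 2 Lbx1 orders are opposite, so no order is read from them. Lhx1 was detected in 87.5% and 89.3% of thinned members, and in 94.96% and 96.8% before thinning. Collagen-rich cells of the same libraries (at least 10 UMIs of Col1a1 and Col1a2 together, none of Elavl3 or Pax2), which should lack these genes, gave the background after thinning: 0% for Pax8 in both libraries, 2.03% and 0.890% for Lbx1, and 1.22% and 0.890% for Lhx1. The 0% came from 246 and 337 such cells, whose median depths were 25367 and 17882 UMIs.

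**Figure D1:**
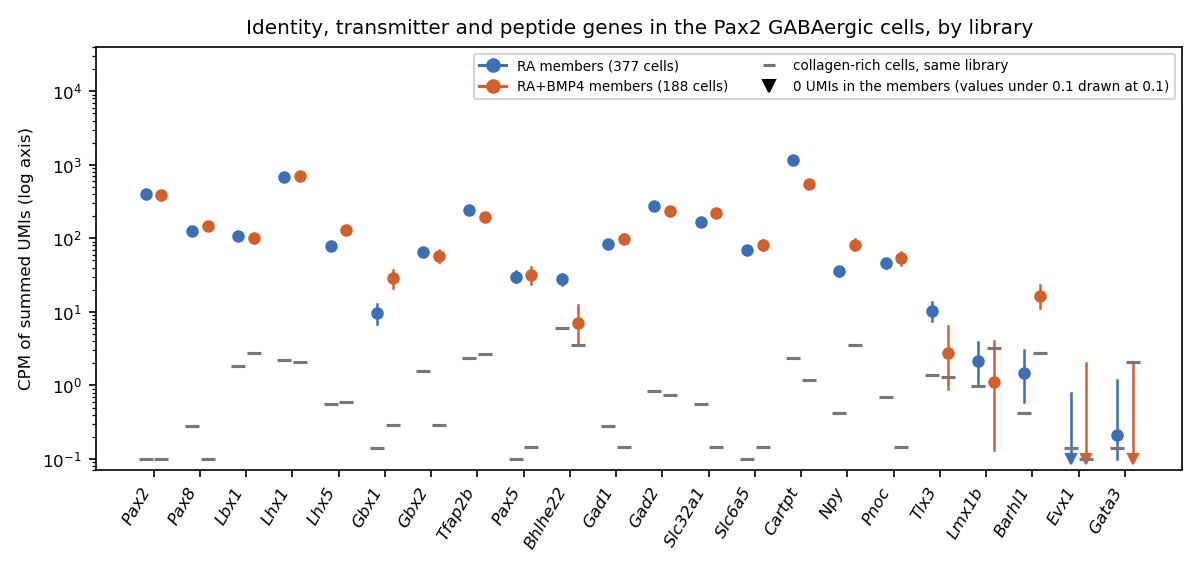
CPM of summed UMIs, on a log axis, of identity, transmitter and peptide genes in the 377 RA and 188 RA+BMP4 members. Lines are 95% Poisson intervals for counting error, grey dashes are the collagen-rich cells of the same library, and triangles mark genes with 0 UMIs in the members. Pax2, Pax8, Lbx1 and Lhx1 lie close together in the libraries, and Cartpt is the highest of the genes shown in RA, at 1176 CPM.

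At the level of single cells, 86.2% of RA members and 80.3% of RA+BMP4 members had a UMI of Pax8 or Lbx1. Lhx1 or Lhx5 was found in 97.3% and 98.9% of members. The listed factors of the dI6, V0, V1 and V2b classes were mostly low, and 2 of 20 reached the level used for calls below. The V0 factor Evx1 had 0 UMIs in both libraries, and the V2b factors Gata2, Gata3 and Tal1 had at most 1 UMI each. The 2 were Foxp1 and En1. En1, the homeobox gene that marks V1 inhibitory neurons, was at 45.1 CPM in RA members and 41.8 CPM in RA+BMP4 members. En1 was found in 19.7% and 15.3% of thinned members, against 12.2% and 20.5% of thinned collagen-rich cells. Whether collagen-rich cells express En1 themselves was not tested, so these shares set no background for En1. The glutamate transporter Slc17a6, a marker of excitatory neurons, was detected in 4.77% and 4.79% of members, and the cells that had it were deep, with medians of 22246 and 14422 UMIs. Any of the dI5 and dILB genes Tlx3, Lmx1b and Prrxl1 was detected in 13.0% and 4.79% of members. Ptf1a, the progenitor factor of this domain, had 1 UMI in RA and 0 in RA+BMP4. Pax8, Lbx1 and Lhx1 were above the background in both libraries.

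The libraries were compared gene by gene in the summed members. Of 31053 genes, 7088 reached 20 CPM and a UMI in at least 10% of members in 1 of the libraries. A gene was called apart when its ratio was at least 2 and the higher side met those limits, with counts below 3 set to 3. Of these, 90 genes were called higher in RA+BMP4, 1.27% of the genes measured, and 30 were called lower, 0.423%. Together the 120 calls were 1.69%. The median log2 ratio of all genes measured was 0.03. With TMM scaling the calls were 67 higher and 40 lower, so the share of higher calls depended on the scaling. The scatter of the 7088 genes shows most of them between the 2-fold lines.

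**Figure D2:**
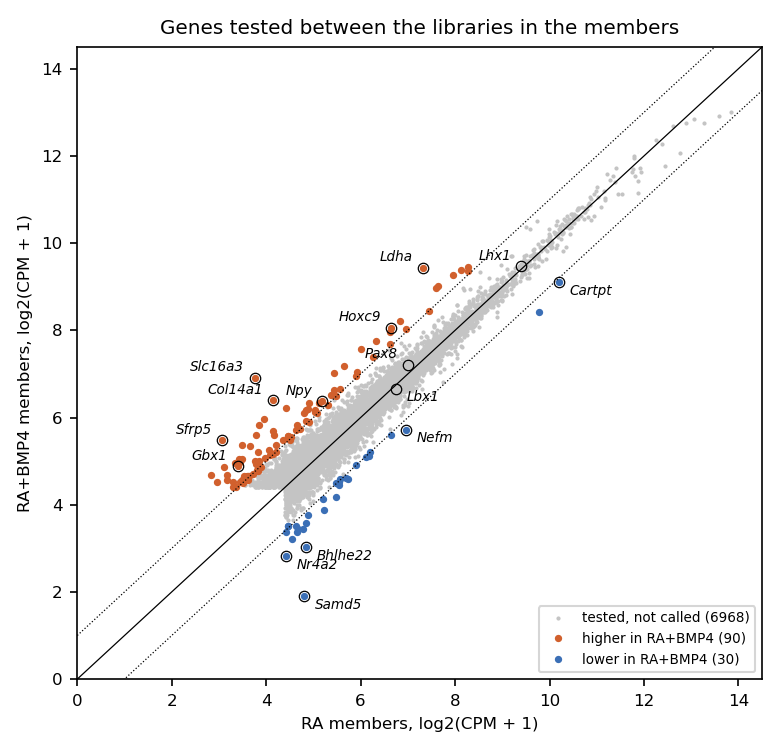
Each point is 1 of the 7088 genes measured, at log2(CPM + 1) in RA members on the horizontal axis and in RA+BMP4 members on the vertical axis. Dotted lines mark a ratio of 2, orange points are the 90 genes called higher in RA+BMP4 and blue points the 30 called lower. Pax8, Lbx1 and Lhx1 sit near the diagonal, and Ldha, Slc16a3 and Samd5 sit far from it.

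Among the 19 listed factors of the dI4 and dILA classes, 11 reached the level, 1 was called higher and 1 lower, and their median log2 ratio was 0.07. Gbx1, a homeobox gene of the late-born dorsal inhibitory neurons, was at 9.52 CPM in RA (interval 6.94 to 12.7) and 28.6 CPM in RA+BMP4 (21.3 to 37.5). The Gbx1 log2 ratio was 1.59 (0.98 to 2.19), and 48.1% of its RA+BMP4 UMIs lay in 1 group of cells, group 4 below. Without groups 4 and 7 the Gbx1 ratio was 0.80 and was not called. Bhlhe22, a basic helix-loop-helix factor of dorsal horn neurons, was at 27.7 CPM in RA members and 7.14 CPM in RA+BMP4 members, giving a log2 ratio of -1.96 (-2.90 to -1.13). Lhx5, the LIM homeobox partner of Lhx1, was at 78.3 CPM (70.5 to 86.7) in RA and 130 CPM (114 to 147) in RA+BMP4, giving a log2 ratio of 0.73 (0.49 to 0.97) that was under the limit of the call. Lhx5 was found in 29.5% and 48.02% of thinned members and in 0% of thinned collagen-rich cells. Gbx2, a relative of Gbx1, was at 65.8 and 57.7 CPM, and Tfap2b, an AP-2 factor, at 246 and 195 CPM. Pax5, the third gene of the Pax2 family, was at 30.04 and 31.9 CPM. None of Gbx2, Tfap2b and Pax5 was called.

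Factors that mark birth order in the spinal cord were also compared. Of 21 listed, 14 reached the level and 0 were called higher. Zfhx3, a zinc-finger homeobox factor, was at 1297 CPM in RA members and 958 CPM in RA+BMP4 members. Onecut2, a factor of early-born neurons, was at 66.2 and 39.6 CPM, giving a log2 ratio of -0.74, and Pou2f2, of intermediate birth, at 154 and 152 CPM. Nfib, a late factor, was at 36.4 and 47.8 CPM, but it was found in 8.51% and 16.9% of thinned members against 87.0% and 81.9% of thinned collagen-rich cells.

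Both fast inhibitory transmitters were represented. Slc6a5, the glycine transporter that supplies glycinergic terminals, was at 70.03 CPM in RA (62.7 to 78.0) and 81.3 CPM in RA+BMP4 (68.7 to 95.5), giving a log2 ratio of 0.22 (-0.07 to 0.50). It was found in 49.3% and 43.6% of members, and in 29.0% and 33.3% after thinning, against 0% and 0.297% of thinned collagen-rich cells. Of the Slc6a5 cells, 178 of 186 in RA and 78 of 82 in RA+BMP4 also had Gad1 or Gad2, which the choice of members on these genes largely fixes: only 20 of 377 and 11 of 188 members had neither. Of the 15 listed genes of GABA and glycine transmission, 6 reached the level, 0 were called higher and 1 lower. The gene called lower was Dlgap1, a scaffold protein of synapses, at 43.8 and 21.4 CPM. None of the 12 genes for other transmitters reached the level, which include the cholinergic gene Chat, at 2 UMIs in RA and 0 in RA+BMP4, and the serotonin transporter Slc6a4, also at 2 and 0 UMIs.

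Cartpt, which encodes the CART peptide and lies at chr13:99898489-99901091, was at 1176 CPM in RA (1145 to 1207) and 548 CPM in RA+BMP4 (515 to 583). It was the peptide gene called lower in RA+BMP4, at a log2 ratio of -1.10 (-1.200 to -1.004), among 8 of 27 listed peptide genes that reached the level. The Cartpt ratio was -0.99 without groups 5 and 6 and -0.70 in members with an Lbx1 UMI, and in neither of those was it called. Cartpt was found in 51.7% and 44.1% of members and in 43.4% and 36.7% after thinning, against 0% and 0.297% of thinned collagen-rich cells. Its UMIs were concentrated: the top 38 RA cells held 73.8% of them and the top 19 RA+BMP4 cells 74.0%, and the highest cells had 363 and 112 UMIs. Npy, neuropeptide Y, was called higher in RA+BMP4, at 35.5 CPM in RA (30.4 to 41.3) and 82.4 CPM in RA+BMP4 (69.7 to 96.7), giving a log2 ratio of 1.21 (0.89 to 1.54). Npy came from 33 RA cells and 19 RA+BMP4 cells, 8.75% and 10.1% of members, of which 28 and 12 also had Cartpt. A single cell held 29.2% of the RA Npy UMIs and another 20.7% of those in RA+BMP4. Npy was not called in 3 of the alternatives, where its ratio was between 1.05 and 1.78. Pnoc, the nociceptin precursor of dorsal horn inhibitory neurons, was at 45.7 and 53.3 CPM and was not called.

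Receptors, channels and guidance genes showed few differences of size. None of the listed genes for GABA, glycine and glutamate receptors was called, with 9 of 37 at the level, and none of 31 channel genes was, with 11 at the level. Among receptors, the AMPA subunit Gria2 was at 208 CPM in RA members and 247 CPM in RA+BMP4 members, and the GABA-B subunit Gabbr1 at 110 and 111 CPM. Among channels, the calcium channel subunit Cacna2d3 was at 148 and 119 CPM. Of 44 guidance and adhesion genes, 33 reached the level and 0 were called. Robo3, a receptor of commissural axons before they cross the midline, was at 396 CPM in RA members and 475 CPM in RA+BMP4 members. Its log2 ratio was 0.26. Dcc, the netrin receptor, was at 78.7 and 141 CPM, giving a log2 ratio of 0.84 (0.60 to 1.07), and was found in 24.5% and 44.1% of thinned members against 0.813% and 1.19% of thinned collagen-rich cells. The members were neurons by their cytoskeletal genes, with Tubb3 at 1424 and 1632 CPM and Map2 at 1247 and 905 CPM. Of 29 maturation genes, 27 reached the level, of which Snhg11, a long noncoding RNA of neurons, was called higher (78.9 and 216 CPM). Group 5 below held 45.3% of the RA and 34.4% of the RA+BMP4 Snhg11 UMIs. Nefm, the medium neurofilament, was called lower (124 and 51.6 CPM), and group 5 held 35.3% of its RA UMIs.

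Glycolytic genes were higher in RA+BMP4 members. Of 17 listed hypoxia and glycolysis genes, 16 reached the level, 12 were called higher in RA+BMP4 and 0 lower, and all 16 had a ratio above 1. Their median log2 ratio was 1.32, beside 0.03 for all genes measured. Ldha, lactate dehydrogenase A, was at 159 CPM in RA (148 to 171) and 694 CPM in RA+BMP4 (656 to 733), giving a log2 ratio of 2.13 (1.995 to 2.259). Pgk1, phosphoglycerate kinase, was at 248 CPM (234 to 263) and 616 CPM (581 to 654), giving a log2 ratio of 1.31. Hk2, a hexokinase that commits glucose to glycolysis, was at 6.14 and 24.7 CPM. Pdk1, a kinase that inhibits pyruvate dehydrogenase, was at 13.3 and 55.5 CPM. Bnip3, a mitophagy receptor, was at 63.3 and 191 CPM, and Vegfa, the vascular growth factor, at 42.5 and 98.9 CPM. Slc16a3, the lactate exporter, was not on the list and had the highest ratio of the 90 genes called higher. It was at 12.5 CPM in RA (9.50 to 16.1) and 120 CPM in RA+BMP4 (104 to 137), giving a log2 ratio of 3.26 (2.84 to 3.70). Slc16a3 was found in 9.55% of RA members and 51.1% of RA+BMP4 members, and in 6.12% and 37.9% after thinning. Thinned collagen-rich cells gave 10.2% and 11.6%, so the RA share did not exceed that level. The housekeeping glycolytic genes Gapdh and Pkm were at log2 ratios of 0.77 and 0.52 and were not called.

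The difference was spread over many cells. Summed over the 12 called genes, RA members had a median of 5.61 UMIs per 10000 (quartiles 3.62 and 10.8, highest 68.0), and RA+BMP4 members a median of 24.6 (quartiles 13.3 and 39.2, highest 76.7). The RA median was exceeded by 173 of 188 RA+BMP4 members, 92.0%. The 12 genes were chosen because they were called higher in RA+BMP4 in these same members. A higher level in the members as a whole therefore follows from the choice, and the values only describe its spread over cells. The ranges overlapped. The same list was high in RA+BMP4 in other cells of these libraries: its median log2 ratio was 1.31 in Tlx3 neurons and 1.25 in cells with the member profile but at least 10 Sst UMIs, and 0.09 in collagen-rich cells. In collagen-rich cells Ldha was at 421 CPM in the RA library and 344 CPM in the RA+BMP4 library, as the plot of the 4 cell sets shows. Of the 90 genes called higher in members, 49 were also called higher in Tlx3 neurons, 42 in Sst-rich cells, 27 in both and 5 in collagen-rich cells. Genes called higher made up 5.70% of those measured in Tlx3 neurons, 2.70% in Sst-rich cells and 0.938% in collagen-rich cells.

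**Figure D3:**
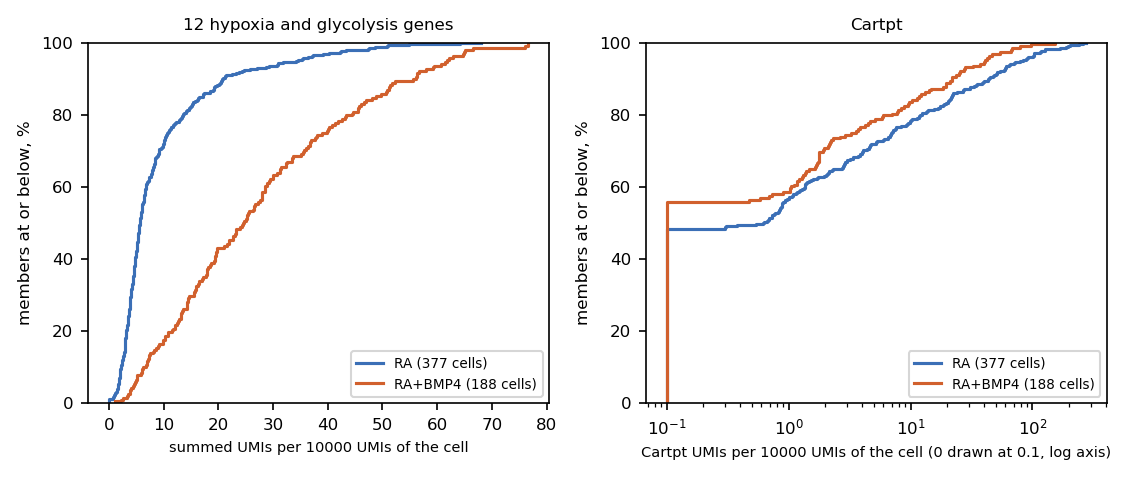
Cumulative share of members, in percent, against UMIs per 10000 UMIs of the cell, for the 12 listed hypoxia and glycolysis genes called higher (left) and for Cartpt (right, log axis, 0 drawn at 0.1). The RA+BMP4 curve lies to the right for the 12 genes, with medians of 5.61 and 24.6, and slightly to the left for Cartpt.

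**Figure D4:**
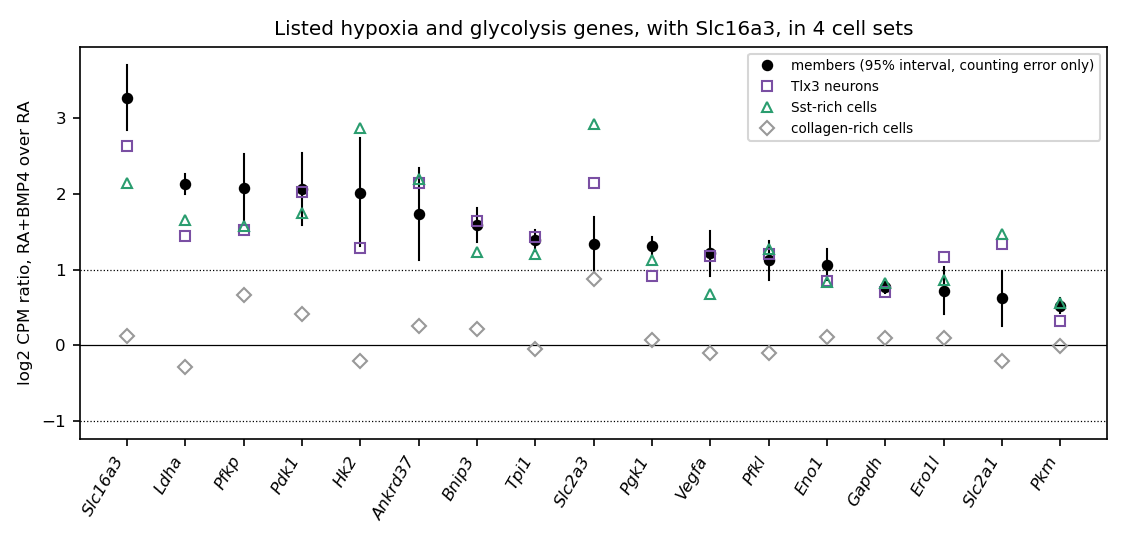
Log2 CPM ratio of RA+BMP4 over RA for the listed hypoxia and glycolysis genes and Slc16a3, in members (black, with 95% intervals for counting error), Tlx3 neurons, Sst-rich cells and collagen-rich cells. Dotted lines mark a ratio of 2. In members Slc16a3 was at 3.26 and Ldha at 2.13, and the collagen-rich cells lie near 0 for most genes.

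Promoter sequences are given for Ldha, Slc16a3, Hk2 and Pgk1, which are among the genes called higher in RA+BMP4 members. These 4 genes are not the 4 with the highest ratios. The letters are 250 bases upstream of the start of transcription, from RefSeq on GRCm38.p6, each printed 5′ to 3′ on the gene's strand. Capitals mark ACGTG on either strand (ACGTG or CACGT), a form of the core of the hypoxia response element bound by HIF. CACGTG holds both forms and is also the E-box of the Myc and USF factors. The window of Ldha lies at chr7:46845554-46845803 on the plus strand and that of Slc16a3 at chr11:120948817-120949066 on the plus strand. The window of Hk2 lies at chr6:82774455-82774704 on the minus strand and that of Pgk1 at chrX:106186850-106187099 on the plus strand.

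Ldha: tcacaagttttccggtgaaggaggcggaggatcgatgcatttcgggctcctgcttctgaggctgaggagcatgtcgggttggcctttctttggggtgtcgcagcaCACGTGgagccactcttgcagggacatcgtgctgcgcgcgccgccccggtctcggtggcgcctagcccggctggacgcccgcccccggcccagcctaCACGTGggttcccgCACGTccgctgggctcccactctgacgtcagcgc

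Slc16a3: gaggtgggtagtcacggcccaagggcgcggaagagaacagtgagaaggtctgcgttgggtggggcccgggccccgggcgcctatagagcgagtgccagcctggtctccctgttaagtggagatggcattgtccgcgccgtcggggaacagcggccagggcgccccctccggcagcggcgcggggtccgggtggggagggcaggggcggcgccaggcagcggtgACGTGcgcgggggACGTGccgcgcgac

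Hk2: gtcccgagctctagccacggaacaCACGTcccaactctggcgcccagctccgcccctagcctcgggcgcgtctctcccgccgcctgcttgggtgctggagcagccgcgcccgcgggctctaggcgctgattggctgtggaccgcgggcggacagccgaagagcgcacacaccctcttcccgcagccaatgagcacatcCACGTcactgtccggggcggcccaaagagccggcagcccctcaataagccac

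Pgk1: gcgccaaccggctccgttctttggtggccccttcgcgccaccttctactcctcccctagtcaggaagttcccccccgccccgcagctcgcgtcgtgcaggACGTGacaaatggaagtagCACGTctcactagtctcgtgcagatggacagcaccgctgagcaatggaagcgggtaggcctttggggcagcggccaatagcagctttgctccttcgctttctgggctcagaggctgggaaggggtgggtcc

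Ldha had 5 matches, 4 of them inside 2 copies of CACGTG. Another RefSeq start of Ldha, with its window at chr7:46846832-46847081, had 0. The windows of Slc16a3, Hk2 and Pgk1 had 2 each. The letters were present in 16.6% of all 32851 promoter windows of that length and in at least 1 window of 26.9% of the 5596 measured genes that have one. Of the listed genes called higher, 6 of 11 with a window held them (54.5%): Bnip3, Ldha, Pgk1, Hk2, Vegfa and Ankrd37. Pfkp, Pfkl, Tpi1, Eno1 and Pdk1 did not, in this window. For Vegfa, on the minus strand, the window at chr17:46025164-46025413 had 1 match and the window of its upstream start, at chr17:46032378-46032627, had 0. Pdk1, without the letters, had a log2 ratio of 2.06 in members. That ratio lay below those of Slc16a3 (3.26) and Ldha (2.13) and above those of Hk2 (2.01) and Pgk1. Whether the letters go with the size of the ratio was not tested. Over all genes called, 28 of 70 that were higher (40%) and 7 of 22 that were lower (31.8%) held the letters. A match is a description of the sequence, not a bound site.

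Positional and signalling genes gave smaller sets of calls. Of 20 listed Hox genes of groups 4 to 10, which set the level along the body axis, 15 reached the level, 2 were called higher and 0 lower, with a median log2 ratio of -0.02. Hoxc9 was at 99.4 CPM in RA (90.6 to 109) and 266 CPM in RA+BMP4 (243 to 291), giving a log2 ratio of 1.42 (1.23 to 1.61). Hoxa9 was at 49.3 CPM (43.2 to 56.0) and 144 CPM (127 to 162), giving a log2 ratio of 1.55 (1.29 to 1.81). Hoxb9, of the same group 9, was at 1120 and 1368 CPM, a ratio of 0.29, and Hoxb8 at 919 and 1058 CPM. Hoxc9 was higher in RA+BMP4 in each of the 5 groups compared (1, 2, 3, 5 and 6, leaving out group 4 with its single RA cell), for example at 107 and 260 CPM in group 1 and at 101 and 329 CPM in group 3. Of 13 genes that respond to BMP, 7 reached the level and 1, the homeobox gene Msx1, was called higher. Msx1 was at 10.2 CPM in RA members and 40.7 CPM in RA+BMP4 members. Group 6 held 56.25% of its RA and 41.9% of its RA+BMP4 UMIs, and 1 cell held 35.4% of those in RA. The inhibitors of differentiation Id1, Id2 and Id3 were not called, at log2 ratios of 0.85, -0.14 and -0.23. Of 14 retinoic acid genes, 6 reached the level and 1, the retinal reductase Dhrs3, was called higher, at 12.7 and 47.8 CPM. Group 6 held 30% of the RA and 36.8% of the RA+BMP4 Dhrs3 UMIs, and group 4 held 26.4% of those in RA+BMP4. Of the other genes called higher, Sfrp5, a secreted inhibitor of Wnt signalling, was at 7.40 and 43.9 CPM, and Zic5, a zinc-finger factor of the dorsal neural tube, at 20.3 and 73.1 CPM. Col14a1, a collagen, was at 16.7 and 83.5 CPM, and group 6 held 73.0% of its RA+BMP4 UMIs.

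Some of the 30 genes lower in RA+BMP4 had a large share of their RA UMIs in a small set of cells. Samd5, a sterile alpha motif protein, was at 27.1 CPM in RA (22.6 to 32.2) and 2.75 CPM in RA+BMP4 (0.892 to 6.41), giving a log2 ratio of -3.30 (-4.95 to -2.04). Nr4a2, an orphan nuclear receptor, was at 20.5 CPM and 6.04 CPM, giving a log2 ratio of -1.76. Group 7 below, with 29 RA cells and 0 RA+BMP4 cells, held 6.84% of the RA members' UMIs but 57.7% of Nr4a2, 43.0% of Samd5, 39.3% of Irx2 and 32.1% of Bhlhe22 UMIs. Of the 30 genes, 8 had more than 20% of their RA UMIs there. Without groups 4 and 7 the number called lower was 19, and Nr4a2 (log2 ratio -0.62), Bhlhe22 (-1.24) and Samd5 (-3.07) were no longer called. Ddit3, a transcription factor of the endoplasmic reticulum stress response, was also called lower, at 71.1 and 33.5 CPM. Top2a, a topoisomerase of dividing cells, was at 99.01 and 47.8 CPM, but group 6 held 78.4% of its RA UMIs.

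Clustering of the members of both libraries together gave 7 groups, which are given by number and leading genes. The genes that led a group defined it and are no result, and a group mostly of 1 library may be that library and not a type. Group 1, with 111 RA and 53 RA+BMP4 cells, was led by Npy, Cartpt, Chmp2b, Kif26a, Fgf12 and Hs3st5. Its Cartpt level was 3905 CPM in RA members and 1759 CPM in RA+BMP4 members. Group 2, with 108 and 20 cells, was led by Nhsl2, Nr2f1, Fstl5, Xrcc5, Hsd11b2 and Dcp1a. Group 3, with 80 and 46 cells, was led by Ppp1r17, Nhlh1, Ebf2, Klhl35, Neurod2 and Ppp1r14a. Robo3 was at 761 CPM in group 3 and 769 CPM in group 4, against 91.8 CPM in group 1. Cartpt was at 11.0 CPM in group 3. Group 4, with 1 and 40 cells, was led by Gbx1, Slc16a3, Csgalnact1, Pdk1, Kirrel and Ripk2.

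Group 5, with 29 and 11 cells, was led by Sncg, Slc17a6, Pcp4, Scg2, Chl1 and Syt4 and had a median of 19478 UMIs. Group 6, with 19 and 18 cells, was led by Dcn, Col1a1, Top2a, Fabp7, Col3a1 and Gpc3 and had a median of 22488 UMIs. The depth of both lay above that of the other groups, at 7115 to 11516 UMIs, and both were led in part by genes of other cell types. Group 7, with 29 and 0 cells, was led by Cdh8, Nr4a2, Samd5, Otp, Irx2 and Cntn5, and had Tfap2b at 3.09 CPM and Gbx1 at 0 CPM.

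**Figure D5:**
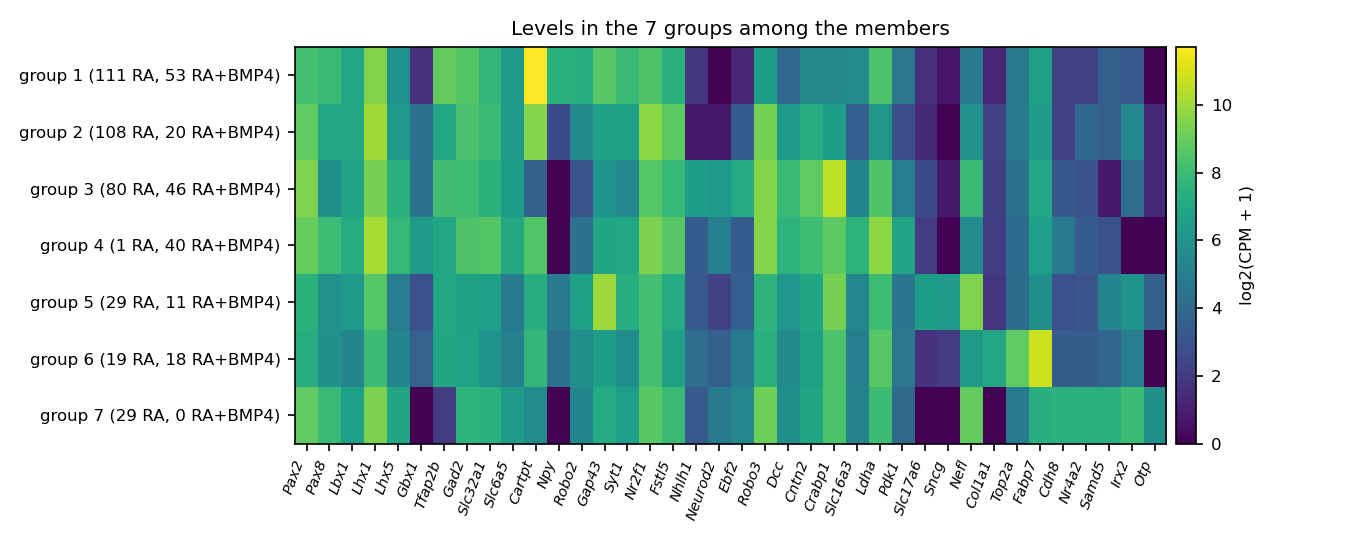
Log2(CPM + 1) of identity genes and of leading or listed genes in the 7 groups among the members, with the number of cells from each library beside the group. Cartpt stands out in group 1, Crabp1 in group 3, Slc16a3 and Ldha in group 4 and Fabp7 in group 6.

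The core identity genes were found in every group. Lhx1 ranged from 261 CPM in group 6 to 1162 CPM in group 4, and Lbx1 from 39.2 CPM in group 6 to 149 CPM in group 4. Pax8 ranged from 57.4 CPM in group 3 to 269 CPM in group 4. The library difference in glycolytic genes was present within groups. Ldha was at 187 CPM in RA members and 748 CPM in RA+BMP4 members within group 1, at 57.3 and 200 CPM within group 2, and at 195 and 766 CPM within group 3. Per 10000 UMIs the 12 called genes had medians of 5.80 and 25.4 in group 1, 4.22 and 11.4 in group 2, and 6.72 and 25.9 in group 3. Their medians were 5.92 and 25.2 in group 5 and 9.07 and 15.1 in group 6. Group 2 had the lowest median in both libraries. The 12 genes were chosen on this same library contrast, so these medians are a description.

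Members with and without a UMI of Pax8 were also set side by side after thinning. In RA, the 162 cells with Pax8 had Cartpt at 2248 CPM and the 214 without had 736 CPM. In RA+BMP4, the 80 cells with Pax8 had Cartpt at 1008 CPM and the 97 without had 369 CPM. Pax5 moved the same way, at 55.6 and 17.8 CPM in RA and at 57.5 and 24.7 CPM in RA+BMP4. The depth of the cells before thinning was similar, with medians of 10535 and 11279.5 UMIs in RA. Members with and without an Lbx1 UMI had Cartpt at 1178 and 1523 CPM in RA, and in the opposite order, at 868 and 499 CPM, in RA+BMP4. Lhx1 was at 784 and 703 CPM in RA and at 816 and 780.2 CPM in RA+BMP4.

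Tlx3 neurons were cells of the same libraries with at least 1 UMI each of Tlx3 and Prrxl1, at least 3 UMIs of these and Lmx1b together, and none of Pax2, the GABA genes or Isl1. They numbered 305 in RA and 32 in RA+BMP4. In RA, 357 of 7010 genes were higher in members (5.09%) and 170 lower (2.43%). In RA+BMP4, 544 of 7333 were higher (7.42%) and 346 lower (4.72%). Called in both libraries in the same direction were 194 genes higher (2.87% of 6763) and 76 lower (1.12%). Cartpt was at 1176 CPM in RA members and 9.07 CPM in RA Tlx3 neurons, and at 548 and 4.998 CPM in RA+BMP4. Pax8 was at 127 CPM against 0.252 CPM, which was 1 UMI, and at 147 CPM against 0 UMIs. Nrxn3, a presynaptic neurexin, was at 424 and 11.3 CPM in RA and at 453 and 14.995 CPM in RA+BMP4. Lamp5, a vesicle membrane protein of GABAergic neurons, was at 128 and 3.78 CPM and at 110 and 2.50 CPM. Lhx1 was at 677 and 16.1 CPM in RA and at 710 and 82.5 CPM in RA+BMP4. Slc6a5, Cacna2d3, Pnoc, Cntn1, Slc30a3, Fam135b and Lhx5 completed the 12 highest mean ratios.

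Other genes were lower in members than in Tlx3 neurons. Tlx1, the paralog of Tlx3, was at 0.212 CPM in RA members, which was 1 UMI, and 90.9 CPM in RA Tlx3 neurons, and at 0 UMIs and 45.0 CPM in RA+BMP4. Pou4f1, a POU factor of excitatory and sensory neurons, was at 26.7 and 334 CPM in RA and at 9.89 and 260 CPM in RA+BMP4. Cacna2d1, a calcium channel subunit, was at 17.8 and 264 CPM and at 11.5 and 325 CPM, opposite in order to Cacna2d3, which was at 148 and 5.04 CPM in RA. Ebf2, a factor of newly made neurons, was at 41.7 and 352 CPM in RA and at 33.0 and 282 CPM in RA+BMP4. Sstr2, Neurod4, Nrn1, Eya2, Mfng, Tmem163, Chst8 and Neurog2 were the others of the 12 lowest. Of the 18 listed genes of newborn neurons and Notch signalling, 16 could be compared in both libraries, 8 were lower in members in both and 0 higher. Lbx1, which both classes use, was at 76.6 and 57.5 CPM in Tlx3 neurons, beside 107 and 101 CPM in members.

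The cells removed for Sst were close to the members in RA. There, 12 of 6916 genes were higher in members (0.174%) and 14 lower (0.202%), or 0.376% in either direction. In RA+BMP4, with 55 Sst-rich cells, 126 of 7327 were higher (1.72%) and 93 lower (1.27%), or 2.99% in either direction. Unc5c, a netrin receptor, Pax5 and Rprm, a cell cycle inhibitor, were higher in both libraries. Unc5c was at 56.9 CPM in RA members and 19.2 CPM in RA Sst-rich cells, and at 74.2 and 32.3 CPM in RA+BMP4. Abca1, a cholesterol exporter, had the highest ratio in RA, at 39.3 and 9.15 CPM. Sema3a, a repulsive guidance ligand, and Sorcs3, a sorting receptor, were lower in both, with Sema3a at 20.1 and 67.8 CPM in RA and at 12.6 and 43.1 CPM in RA+BMP4. Pax8 was at 80.1 and 70.8 CPM in Sst-rich cells, Lhx1 at 666 and 651 CPM and Cartpt at 1190 and 1091 CPM. The comparison with Dmrt3 cells was not made, since they numbered 21 and 1.

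Markers of other cell types were present in some members. The 8 mesenchyme genes summed to 174 CPM in RA members and 93.9 CPM in RA+BMP4 members, against 4061 and 3233 CPM in collagen-rich cells, and none of the 8 was at 0 in either library. The 7 roof plate genes summed to 18.4 and 90.6 CPM, and Gdf7, which defines that tissue, had 0 UMIs in RA and 2 in RA+BMP4. The 7 pluripotency genes summed to 49.1 and 103 CPM, of which Dppa5a was at 29.2 and 79.1 CPM. A single cell held 86.8% of the RA+BMP4 Dppa5a UMIs. Sox10, a glial and neural crest factor, had 1 and 0 UMIs, and the blood genes Hba-a1 and Hbb-bs had 0 in both. Of 20 cell cycle genes, 11 reached the level, Rrm2 was called higher (13.8 and 28.0 CPM) and Top2a lower. Group 6 held 46.2% of the RA and 72.5% of the RA+BMP4 Rrm2 UMIs. The part of these markers in the gene calls was measured by leaving out members with more than 1 UMI of 6 such genes, which left 281 and 152 members. In those, 115 genes were higher and 33 lower, and 14 of the listed hypoxia and glycolysis genes were higher. Top2a was itself among the 6 genes, so its log2 ratio of 0.16 there follows from the filter.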

How the data were processed

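The authors deposited raw UMI counts per gene and barcode for both libraries. The submitters' processing notes name CASAVA, Cell Ranger 3.0.2 and the mouse build GRCm38, and the software version 3.0.2 is also given per the file headers. For cell calling, settings were not given in the sources used here. Counts of member cells were summed per library and scaled to CPM with Python 3.11.15. Intervals were exact (Clopper-Pearson for shares, Poisson for levels, conditional binomial for ratios), at 95%, and cover counting error only. The call rule was a ratio of at least 2 with at least 20 CPM and a UMI in at least 10% of cells on the higher side, with counts under 3 set to 3. Doublets were called, not removed, with Scrublet in scanpy 1.11.5 (8% expected). Members were clustered with leidenalg 0.10.2 at resolution 0.6 on 20 components, 15 neighbours and 2000 variable genes, without the genes of the rule. edgeR 4.0.16 supplied TMM factors for an alternative only. The call rule was also run on simulated counts, drawn from the pooled profile of the members with known ratios planted. Simulated cells differed only by depth and counting error, so this does not bear on genes concentrated in few cells. Gene coordinates came from GENCODE on the same build, and 458 of 459 listed symbols were found once. Named genes were the listed genes, the 12 highest and 12 lowest ratios between libraries and against Tlx3 neurons, the 6 highest and 6 lowest against Sst-rich cells in RA, and the 6 leading genes of each group, without predicted models. The members and lists were chosen with earlier results of these data known. The alternatives are given at the end, and some were added after seeing the data. A result among the birth-order factors is not reported here.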

Additional observations from a re-analysis of the deposited data

Results flagged for a closer look

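Some genes stood on opposite sides in the 2 libraries when members were compared with Tlx3 neurons, and none of these differences was tested. The log2 ratio of members over Tlx3 neurons was 2.53 in RA and -2.33 in RA+BMP4 for Col3a1, 1.93 and -1.36 for Sema3a, and 1.36 and -1.19 for Sfrp1. It was 2.86 and -1.11 for Mmp2 and -2.05 and 3.40 for Dppa5a. The RA+BMP4 Tlx3 neurons numbered 32.

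Others differed between libraries in opposite directions in members and in another set of cells, again with no test of the difference. The log2 ratio of RA+BMP4 over RA was -1.12 in members and 1.54 in Tlx3 neurons for Fam110b, -1.11 and 2.25 for Bend4, and -1.18 and 2.78 for Mmp2. It was -1.06 and 1.87 for Vcan. Dppa5a was at 1.44 in members, -4.01 in Tlx3 neurons and -3.08 in collagen-rich cells, and 1 member held 86.8% of its RA+BMP4 UMIs. Top2a was at -1.05 in members and 1.19 in Sst-rich cells.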

How the results depend on the processing

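No paired analysis was possible because each condition was 1 library. The share ratio of 0.348 was 0.454 under stricter limits (2000 genes or more, mitochondrial UMIs up to 5%), and 0.269 with the Dmrt3 and Sst cells kept. The 90 higher and 30 lower genes became 219 and 161 under those limits, which left 66 RA and 145 RA+BMP4 members. They became 45 and 10 at 50 CPM, and 390 and 164 at 5 CPM with no minimum share of cells. In members with an Lbx1 UMI, 236 in RA and 99 in RA+BMP4, they became 169 and 61. The lower genes numbered 61 after thinning and, in an alternative added after seeing the data, 19 without groups 4 and 7. Against Tlx3 neurons, 96 higher and 36 lower genes were called at 50 CPM, and 154 lower without groups 5 and 6, also added after seeing the data. Against Sst-rich cells the 26 RA calls became 43 without doublet calls and 11 at 50 CPM, and the 219 RA+BMP4 calls became 40 at 50 CPM. Top2a turned to 0.16 in members with at most 1 UMI of 6 collagen, cycling and pluripotency genes, which include Top2a itself. The Top2a change follows from that filter, and the cause of the other shifts was not tested. Ldha (log2 ratio 1.54 to 2.29), Slc16a3 (1.84 to 3.58) and Hoxc9 (1.31 to 1.78) were called higher in all 13 alternatives, and the listed hypoxia and glycolysis genes called higher numbered 9 to 14. Of the other values, 260 stayed the same, which for gene ratios means on their side of the call rule, and 52 gene ratios were no longer called. The 9 that moved were shares of members with a UMI, which without thinning lay outside the interval of the thinned share. Over all 120 calls, 2 changed direction without doublet calls, 2 in members with at most 1 UMI of the 6 genes and 3 without groups 5 and 6. The Dmrt3 comparison was not run, since it needed 30 cells on each side. With 1 library per condition, no interval covers variation between cultures.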
